A study of Mus musculus with 6 samples.

Results

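Integrins are the adhesion receptors through which a macrophage holds on to matrix and to other cells, and 10 of their subunit genes were followed here: Itga4, Itga5, Itga6, Itgal, Itgam, Itgav, Itgax, Itgb1, Itgb2 and Itgb5. They were taken by gene symbol from a table of 16978 genes, and all 10 passed the minimum of 15 counts over the 6 libraries that left 13866 genes for testing. The cells were bone marrow-derived macrophages (BMDM) of wild type C57BL/6 mice, grown from femur marrow and collected on day 7. Every culture, controls included, received 25 ng/ml M-CSF, the growth factor that drives marrow progenitors to macrophages. The control cells were treated under PBS and the other cells for 6 hours with the cytokine IL17B at 200 ng/ml, and each treatment has 3 samples. The comparison asks how IL17B acts on macrophages. No source used here says whether the samples of a treatment were independent cultures or mice, so the p-values speak for the variation among these libraries alone, and that variation may be technical.

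An integrin is a pair of 1 alpha and 1 beta chain, and most chains reach the cell surface only as part of such a pair. On leukocytes the beta2 chain pairs with alphaL, alphaM or alphaX and binds ICAMs, fibrinogen and complement fragments. The beta1 chain pairs with alpha4, alpha5 or alpha6 and binds VCAM-1, fibronectin or laminin, and the alphaV chain pairs with beta5, among others, and binds vitronectin and other proteins with an RGD sequence. Talin and kindlin bind the beta tail from inside the cell and switch the receptor to its high-affinity form, so that the amount of transcript says nothing of how much receptor is active.

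The libraries held 20271411 to 20653322 counts each, and TMM factors between 0.994 and 1.01 changed them little. No 2 libraries were as alike as sampling noise allows, with a variance 4.16 to 10.1 times that of counting alone. Each library was counted as 1 sample, though this spread does not show that the samples were independent. All 12 macrophage markers (among them Lyz2, Csf1r and Cd68) were detected in every library, with a summed level of 29780 to 31240 CPM under PBS and 30280 to 32250 CPM under IL17B, where CPM are counts scaled to a common, normalized library size. Several integrins are also made by other blood cells. The 8 neutrophil markers measured summed to 15.1 to 18.8 CPM, the 7 dendritic cell markers to 2.04 to 2.98 CPM and the 6 lymphocyte markers to 0.391 to 0.883 CPM over the 6 libraries. The neutrophil markers S100a9, Ly6g and Retnlg were not measured. The 6 megakaryocyte markers summed to 2.23 to 2.79 CPM under PBS and 2.84 to 3.42 CPM under IL17B, without overlap. The libraries of IL17B replicates 2 and 3 stood apart by 7 hepatocyte markers, which summed to 194 and 68.0 CPM there and to 0.146 to 0.490 CPM in the other libraries. In bulk RNA, fewer cells of a type and less RNA per cell cannot be told apart.

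The beta2 chain and its alphaM partner were the most abundant of the 10 transcripts. Levels between genes are compared in TPM, the deposited abundance scaled for transcript length and library size. Itgb2, the common beta2 chain, had the highest level at 835 ± 36.9 TPM (SD over all 6 libraries) and stood at percentile 99.0 of the genes in the table. Itgam, the alphaM chain known as CD11b, was next at 469 ± 25.7 TPM, followed by Itgb5 at 291 ± 9.95 TPM and Itgb1 at 256 ± 9.89 TPM. Each of these steps was the same in all 6 libraries, with no overlap in range. Itgal at 159 ± 8.44 TPM and Itga5 at 142 ± 7.56 TPM were neighbours whose ranges overlapped, and Itgal was the higher in 5 of 6 libraries. The 4 lowest were Itgav at 83.5 ± 8.04 TPM, Itga6 at 80.4 ± 3.55 TPM, Itga4 at 71.3 ± 7.15 TPM and Itgax at 57.0 ± 7.20 TPM. Each of these overlapped in range with the next, and each was above it in 5 of 6 libraries, so their order is not sharp. Even Itgax stood at percentile 84.5.

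**Figure D1:**
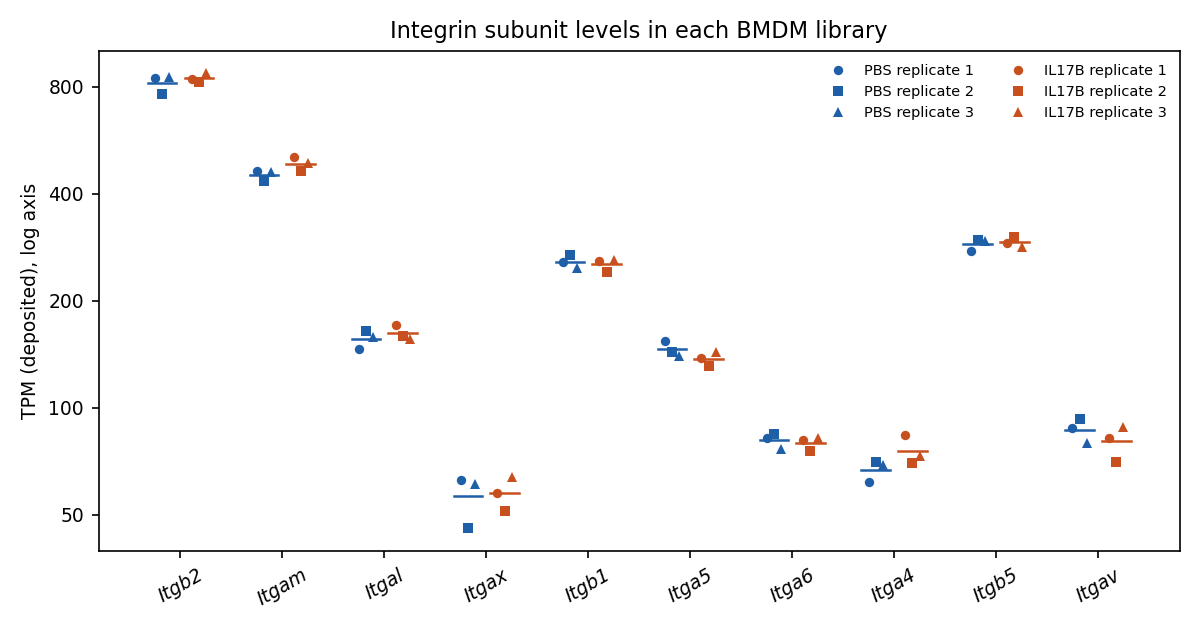
Deposited TPM (log axis) of the 10 integrin genes, ordered by family, in each library. Points are libraries, with a shape for each replicate number, and short lines are the means of 3 PBS (blue) and 3 IL17B (orange) libraries. Itgb2 lay between 766 and 872 TPM and Itgax between 45.8 and 64.0 TPM, and the treatments lay close together for each gene.

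The order depends on transcript length, which the TPM values divide out. The ratio of deposited counts to FPKM gave an effective length of 9971 bases for Itga4 and of 2874 bases for Itgb2, the longest and the shortest of the 10. On the count scale the mean of Itga4, 342 ± 30.2 CPM, was therefore above that of Itga5, 304 ± 17.3 CPM. PBS replicate 1 was an exception, with Itga4 at 301 CPM and Itga5 at 336 CPM. In TPM Itga4 was the lower in every library. The change of order between CPM and TPM concerns levels between genes only, since each gene is set against itself between treatments.

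The beta2 partners Itgal (chromosome 7 of GRCm38 from 127296139 to 127335137), Itgam (128062640 to 128118491) and Itgax (128129526 to 128150657) lie on the same chromosome, with Itgax downstream of Itgam on the same strand. These neighbours had quite different levels, with Itgam 7.37 to 9.47 times as high as Itgax in TPM over the 6 libraries. The 250 bases upstream of the start that the RefSeq promoter table of GRCm38.p6 uses are shown for this pair, the most and the least abundant alpha chain. For Itgax that start lies inside the gene bounds given above, so the end of its window overlaps the annotated gene. Capitals mark GAGGAA, or TTCCTC on the other strand, the letters of the PU box bound by PU.1, a factor that directs myeloid gene expression. The Itgam window is chr7:128062390-128062639 and the Itgax window chr7:128129300-128129549, both on the plus strand.
Itgam: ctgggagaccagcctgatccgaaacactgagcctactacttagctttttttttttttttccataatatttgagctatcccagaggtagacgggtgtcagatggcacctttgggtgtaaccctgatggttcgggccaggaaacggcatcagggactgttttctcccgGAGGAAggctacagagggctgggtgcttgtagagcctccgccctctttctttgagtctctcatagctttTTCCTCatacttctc
Itgax: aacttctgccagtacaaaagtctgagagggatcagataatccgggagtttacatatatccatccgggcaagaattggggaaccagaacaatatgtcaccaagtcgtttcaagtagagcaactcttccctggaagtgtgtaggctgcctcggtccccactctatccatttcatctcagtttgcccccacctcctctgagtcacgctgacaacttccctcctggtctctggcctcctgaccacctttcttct
The Itgam window held 2 matches and the Itgax window 0. Of the 10 integrin genes, 7 had a window in that table (Itga6, Itgal and Itgb2 did not), and 4 of the 7 held the motif (Itgam, Itgav, Itga5 and Itgb1), against 23.3% of 32851 windows in all. A match is only a run of letters, and its absence from a window of this length says nothing of PU.1 binding.

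Reads of near-identical sequence can be divided between genes by the counting. The 10 transcripts, 1 for each gene, were therefore compared in 50-base stretches with the protein-coding transcripts of GENCODE. Other transcripts, such as those of pseudogenes, were not searched. Itgax shared 384 of its 3997 stretches (9.61%) with its paralogue Itgad, the alphaD chain. A stretch of the coding sequence that both share is shown because a read from within it cannot be placed. It spans 188 bases of exons 11 to 13 of Itgax (coding bases 1201 to 1388, chr7:128135612-128136062, introns left out).
Itgax and Itgad: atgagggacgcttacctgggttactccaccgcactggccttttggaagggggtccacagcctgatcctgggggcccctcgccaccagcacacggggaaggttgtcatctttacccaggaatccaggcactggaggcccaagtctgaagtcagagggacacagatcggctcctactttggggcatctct
Itgad itself had 0, 0 and 1 counts under PBS and 1, 0 and 2 counts under IL17B (rounded), so almost no reads had been assigned to the paralogue. Itga4 shared 267 of 9718 stretches (2.75%), of which 251 matched Cerkl, a gene on the opposite strand that overlaps its end. Cerkl was at 5.67 ± 1.65 CPM under PBS and 6.19 ± 2.2 CPM under IL17B. Itgam shared 3354 of 3652 stretches (91.8%) with Gm49368, an overlapping gene model that was not analysed here, and its counts were used as deposited. The other 7 genes shared none with a protein-coding transcript of another gene.

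Because the chains work in pairs, the amount of each alpha transcript was set against that of its partner within each library. The 3 beta2 partners together amounted to 0.810 ± 0.0276 TPM for each TPM of Itgb2 under PBS and 0.833 ± 0.0348 under IL17B (SD, n = 3 each). Itgam made up 68.0% of these alpha transcripts under PBS and 68.9% under IL17B, so that alphaM was the main beta2 partner at the level of RNA. The 3 beta1 partners amounted to 1.14 ± 0.0256 TPM for each TPM of Itgb1 under PBS and 1.15 ± 0.0126 under IL17B. Here the alpha5 chain, the fibronectin receptor, was the largest partner, at 0.567 ± 0.0315 under PBS and 0.541 ± 0.00931 under IL17B. The Itga6 to Itgb1 ratio varied least among the pairs, at 0.315 ± 0.00529 under PBS and 0.314 ± 0.000532 under IL17B. Alpha chains such as alpha4 and alphaV also pair with other beta chains, so a ratio is not a share of receptor.

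**Figure D2:**
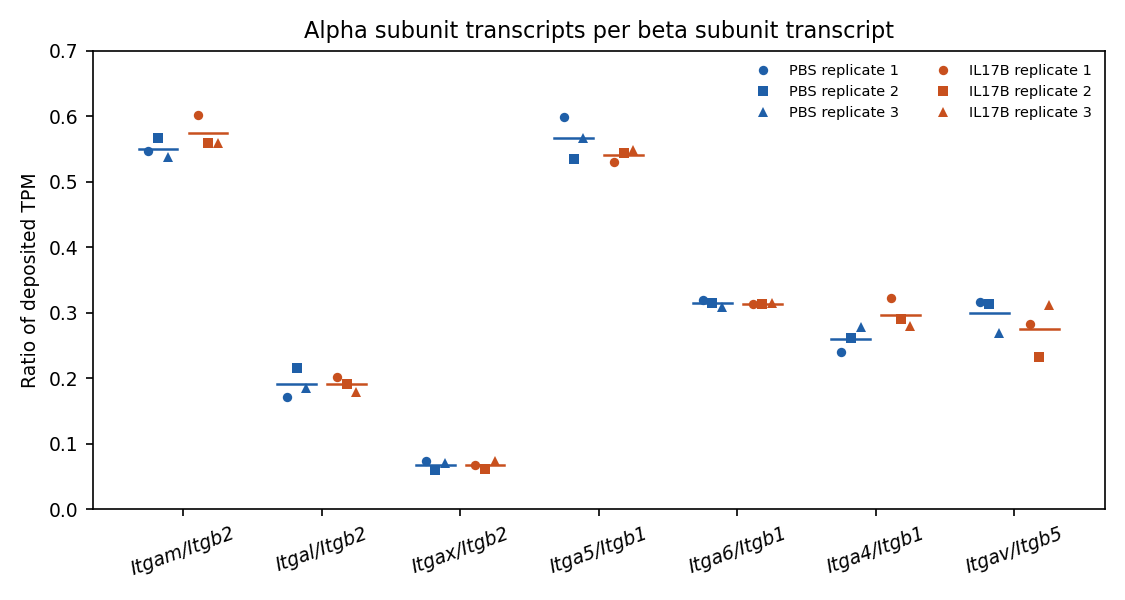
Ratio of deposited TPM of each alpha chain to the beta chain named with it, from 0, in each library. Points are libraries, shaped by replicate number, and short lines are the means of 3 PBS (blue) and 3 IL17B (orange) libraries. Only Itga4/Itgb1 shows no overlap between the treatments, by a small margin (0.279 against 0.280).

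Of the 7 pairs, none reached significance in a two-sided exact permutation test, which with 3 against 3 samples cannot go below p = 0.1. Under PBS, Itga4 to Itgb1 was 0.240, 0.262 and 0.279 (replicates 1 to 3), and under IL17B it was 0.322, 0.290 and 0.280. Every IL17B library was above every PBS library, and the exact permutation p was 0.1, the smallest it can be (0.7 after adjustment over 7 pairs). Itgam to Itgb2 was 0.550 ± 0.0146 under PBS and 0.574 ± 0.0246 under IL17B (exact permutation p = 0.3, 0.7 adjusted). The treatments overlapped in this pair. Itgav to Itgb5, the vitronectin receptor pair, was 0.30 ± 0.0271 and 0.276 ± 0.0404 (exact permutation p = 0.5, 0.875 adjusted). Without IL17B replicate 2 that difference shrank from -0.0238 to -0.0019. Itgal to Itgb2 was 0.191 under both treatments and Itgax to Itgb2 0.0684 and 0.0677, and in each the groups overlapped. The 10 transcripts summed to 2415 ± 40.9 TPM under PBS and 2474 ± 69.1 TPM under IL17B.

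None of the 10 integrin genes changed between PBS and IL17B in edgeR's quasi-likelihood test at an adjusted p of 0.05, and DESeq2 and limma-voom called 0 of them too. Across the table edgeR called 0% of the 13866 genes, so this count cannot tell the integrins from the background. Only Itga4 had an unadjusted p under 0.05, that is 1 of 10 genes against 5.24% of all genes tested. By DESeq2 there were 2 of 10, against 2.25% of all genes. In CPM, 2 integrins (Itga4 and Itgam) were higher in every IL17B library than in every PBS library, which held for 5.16% of all genes, and 0 were lower in every IL17B library, which held for 4.77%. Separation in either direction was thus seen in 2 of 10 integrins and in 9.92% of all genes. Of the log2 fold changes 6 were positive and 4 negative, with a median of 0.012 beside 0.00034 over all genes. The 95% intervals of the 10 fold changes lay between -18.0%, the lower bound of Itgav, and 24.2%, the upper bound of Itga4.

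**Figure D3:**
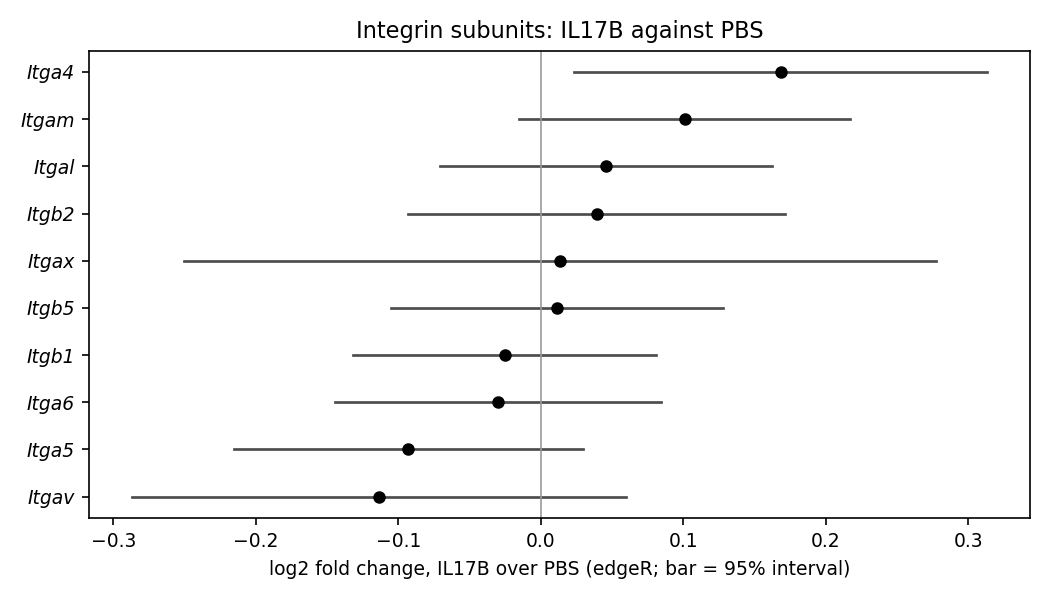
Log2 fold change of each integrin gene, IL17B over PBS, from edgeR. Points are estimates, bars 95% intervals and the vertical line no change. Estimates run from -0.11 for Itgav to 0.17 for Itga4, and the bar of Itga4 alone does not reach 0, though its adjusted p was 0.941 by edgeR.

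Itga4, the alpha4 chain that binds VCAM-1 and fibronectin (chromosome 2 from 79255426 to 79333114), had the largest difference. Replicates 1 to 3 gave 6200, 6875 and 6774 estimated counts under PBS, and 8033, 7035 and 7152 under IL17B. After scaling this was 322 ± 18.1 CPM under PBS and 362 ± 27.7 CPM under IL17B (SD, n = 3 each). The treatments did not overlap in CPM, but the highest IL17B value and the lowest PBS value, both from replicate 1, lay farthest apart. In TPM they did overlap, at 61.7, 70.5 and 68.9 TPM under PBS and 83.6, 70.0 and 73.1 TPM under IL17B. The log2 fold change was 0.17 (SE 0.06, unadjusted p = 0.0271, edgeR adjusted p = 0.941), with a 95% interval of 1.64% to 24.2% higher. Without IL17B replicate 1 it was 0.10 (unadjusted p = 0.124), and with that library alone against the 3 PBS libraries it was 0.29. Without PBS replicate 1 it was 0.12 (edgeR unadjusted p = 0.0950). Over the 16 alternatives (edgeR, DESeq2 and limma) the adjusted p of Itga4 lay between 0.701 and 1.0.

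The 3 tested genes whose CPM pattern over the 6 libraries was most like that of Itga4, out of 8679 with at least 10 CPM, were Slc8a1, Qser1 and Sp4. The root mean square distance of their centred log2 CPM from that of Itga4 was 0.03 for each. All 3 were highest in IL17B replicate 1, and their log2 fold changes of 0.13, 0.16 and 0.14 had edgeR adjusted p = 0.960, 0.941 and 0.976. The likeness is a description over 6 libraries and says nothing of shared control.

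Itgam, whose product pairs with beta2 to form Mac-1, the complement receptor of macrophages and neutrophils, was the other gene without overlap. Replicates 1 to 3 were at 1072, 973 and 1048 CPM under PBS, and at 1135, 1078 and 1104 CPM under IL17B. The lowest IL17B library was only just above the highest PBS library, also in TPM, where they stood at 463.7 and 462.9. The log2 fold change of Itgam was 0.10 (SE 0.05, unadjusted p = 0.0819, edgeR adjusted p = 0.960), with a 95% interval of -1.06% to 16.2%. Leaving out each library in turn gave log2 fold changes between 0.06, without PBS replicate 2, and 0.13, without PBS replicate 1.

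The rest of the beta2 family varied between libraries with no order by treatment. Itgb2 (chromosome 10 from 77530329 to 77565708) was at 1191, 1045 and 1184 CPM under PBS and at 1145, 1171 and 1199 CPM under IL17B. All but PBS replicate 2 were close together, and the log2 fold change was 0.04 (SE 0.06, edgeR adjusted p = 0.989). Itgal, the alphaL chain of LFA-1 that binds ICAM-1, was at 375, 410.1 and 399 CPM under PBS and 422, 409 and 391 CPM under IL17B, a log2 fold change of 0.05 (SE 0.05, edgeR adjusted p = 0.988). The treatments overlapped. Itgax, the CD11c chain often used to mark dendritic cells and tissue macrophages, was at 125, 88.1 and 119 CPM under PBS and 109, 102 and 124 CPM under IL17B. Its log2 fold change was 0.01 (SE 0.12, edgeR adjusted p = 0.998), with a 95% interval of -15.9% to 21.2%, the widest of the 10. Itgax was also the most variable, with its highest library 1.42 times its lowest, beside a median of 1.12 and a percentile 95 of 1.29 among the 2054 genes of at least 100 CPM. Its lowest library was PBS replicate 2, which was also the lowest for Itgam and Itgb2. Without that library the log2 fold change of Itgax was -0.13 and that of Itgb2 -0.02, so that neither kept its sign.

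Among the beta1 family, Itga4 alone had a positive difference. Itgb1, the beta chain shared by most matrix receptors (chromosome 8 from 128685654 to 128733579), was at 533, 540 and 505 CPM under PBS and 519, 503 and 529 CPM under IL17B. It was the steadiest of the 10, with a highest library 1.07 times its lowest and a log2 fold change of -0.03 (SE 0.05, edgeR adjusted p = 0.990). Itga5, the alpha chain of the fibronectin receptor (chromosome 15 from 103344286 to 103366791), was at 336, 304 and 301 CPM under PBS and 289, 287 and 305 CPM under IL17B. Only IL17B replicate 3 was within the PBS range, and the log2 fold change was -0.09 (SE 0.05, edgeR adjusted p = 0.973, 95% interval -13.9% to 2.06%). Without PBS replicate 1, the highest library, the log2 fold change of Itga5 was -0.04. Itga6, the alpha chain of a laminin receptor (chromosome 2 from 71786886 to 71858427), was at 244, 243 and 223 CPM under PBS and 232, 225 and 238 CPM under IL17B, a log2 fold change of -0.03 (SE 0.05, edgeR adjusted p = 0.990). All 3 IL17B libraries were within the PBS range.

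The alphaV and beta5 chains, which together bind vitronectin and take part in the uptake of apoptotic cells, showed no common direction. Itgav (chromosome 2 from 83722303 to 83806917) was at 307, 317 and 274 CPM under PBS and 279, 248 and 303 CPM under IL17B. Its log2 fold change of -0.11 was the most negative of the 10 (SE 0.08, unadjusted p = 0.175, edgeR adjusted p = 0.976), and the treatments overlapped. Leaving out a library moved it between -0.18 and -0.04. Itgb5 (chromosome 16 from 33829665 to 33949338) was at 446, 466 and 471 CPM under PBS and 453, 493 and 448 CPM under IL17B. Its log2 fold change was 0.01 (SE 0.05, edgeR adjusted p = 0.998), and its highest and lowest libraries differed by 1.10 times.

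**Figure D4:**
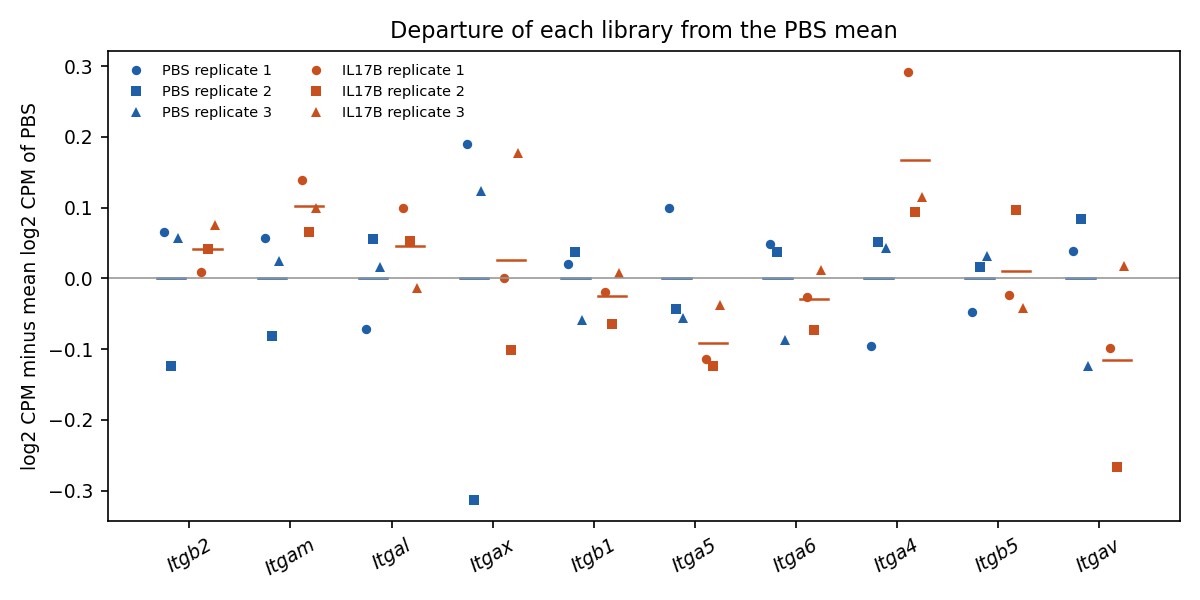
Log2 CPM of each library minus the mean log2 CPM of the 3 PBS libraries, for each integrin gene. Points are libraries, shaped by replicate number (PBS blue, IL17B orange), and short lines are group means. Itga4 in IL17B replicate 1 lies at 0.29 and Itgax in PBS replicate 2 at -0.31, the points farthest from 0.

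No library was high or low for all integrins at once. PBS replicate 1 had the highest CPM for 3 of the 10 genes and the lowest for 3, and PBS replicate 2 the highest for 2 and the lowest for 3. IL17B replicate 1 was the highest for 3 genes (Itga4, Itgal and Itgam) and the lowest for 0. IL17B replicate 2, the library with the most hepatocyte marker RNA, was the highest for Itgb5 and the lowest for Itga5, Itgav and Itgb1. With IL17B replicate 1 alone against PBS, thus without the libraries that carried hepatocyte markers, the log2 fold changes were 0.29 for Itga4 and -0.10 for Itgav. That setting has 1 library in the IL17B arm and takes its spread from the PBS libraries alone, so that its calls carry little weight.

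The other 17 integrin subunits of the table added little RNA, and none was called. They made up 2.69% ± 0.30 of all integrin TPM under PBS and 2.48% ± 0.126 under IL17B (SD, n = 3 each). Of these 17, 13 passed the count minimum, and edgeR called 0 (0 also at an unadjusted p under 0.05), with a median log2 fold change of -0.05. Only 3 reached 10 CPM. Itgb3, the other common partner of alphaV, was at 54.9 ± 3.53 CPM under PBS and 51.1 ± 1.48 CPM under IL17B, and Itgb7, which pairs with alpha4 in gut-homing lymphocytes, at 50.2 ± 6.98 and 46.8 ± 3.82 CPM. Itga9 was at 15.6 ± 1.58 and 15.3 ± 2.10 CPM. Itga1, Itga2, Itga2b, Itga3, Itga7, Itga8, Itga10, Itga11, Itgad, Itgae, Itgb2l, Itgb4, Itgb6 and Itgb8 had 89 counts or fewer in every library. Shares of beta chain TPM were taken over the sum of Itgb1, Itgb2, Itgb3, Itgb5 and Itgb7. Itgb2 made up 57.6% of it under PBS and 58.5% under IL17B, Itgb5 20.3% and 20.2%, and Itgb1 18.1% and 17.5%. For each of these shares the treatments overlapped.

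Osteopontin was the most abundant ligand transcript that BMDM made for these receptors, in TPM as in CPM. Of the 34 ligand genes listed, 31 were tested and edgeR called 0, with a median log2 fold change of -0.17. Over the 11 ligands with a mean of at least 10 CPM the median was -0.024. At an unadjusted p under 0.05 in edgeR 6 were higher and 3 lower, against 2.96% and 2.28% of all genes tested. By TPM the leading 6 were Spp1 at 2493, Tgfb1 at 631, Mfge8 at 508, Thbs1 at 344, Icam1 at 115 and C3 at 102 (means of 6 libraries), and the values that follow are in CPM. Spp1, osteopontin, a ligand of alphaV and alpha4 integrins, was at 1734 ± 179 CPM under PBS and 1657 ± 206 CPM under IL17B (SD, n = 3 each). Thbs1, thrombospondin 1, was at 766, 759 and 1066 CPM under PBS and 1142, 1118 and 1024 CPM under IL17B, so the treatments overlapped through PBS replicate 3 (log2 fold change 0.34, SE 0.12, edgeR adjusted p = 0.909). Mfge8, which bridges apoptotic cells to alphaV integrins, was at 528 ± 32.4 and 509 ± 10.7 CPM. Icam1, the partner of LFA-1 and Mac-1 on other cells, was at 140.0 ± 2.34 and 142 ± 3.44 CPM, and Tgfb1, whose latent form is activated by alphaV integrins, at 667 ± 31.5 and 656 ± 27.2 CPM.

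Most ligands past an unadjusted p of 0.05 differed in the same direction as markers of other cell types. The genes of this paragraph were named after their values were seen. Vtn, Fga, Fgb and Fgg, the vitronectin and fibrinogen genes made by liver, had 0 counts in all PBS libraries and in IL17B replicate 1. In IL17B replicates 2 and 3, Fga had 308 and 172 counts and Vtn 88 and 31, and these are the libraries in which the hepatocyte markers (Fga among them) summed to 194 and 68.0 CPM. Tnc, Ccn1 and Ccn2, matrix proteins of stromal cells, were the lower ones, and each was highest in PBS replicate 2. Tnc was at 17.5, 26.6 and 19.6 CPM under PBS and 15.9, 14.6 and 18.1 CPM under IL17B, so the treatments overlapped. Ccn1 was at 3.21, 4.95 and 3.04 CPM under PBS and 2.35, 2.54 and 1.95 CPM under IL17B (log2 fold change -0.71, SE 0.22, edgeR adjusted p = 0.862). The 7 stromal markers, led by Col1a1, summed to 45.2, 62.2 and 42.0 CPM under PBS and 36.2, 39.8 and 37.1 CPM under IL17B, also lower in every IL17B library. Fn1, fibronectin, the ligand of alpha5beta1 and alpha4beta1, was at 35.9, 56.5 and 43.9 CPM under PBS and 32.5, 38.5 and 38.6 CPM under IL17B, with overlap and with its highest value in the library with most stromal marker RNA. The part of the stromal and liver RNA in these differences was not tested. Edil3, a secreted ligand of alphaV integrins, was at 38.8 ± 6.07 CPM under PBS and 47.4 ± 1.79 CPM under IL17B, without overlap (log2 fold change 0.29, SE 0.10, edgeR adjusted p = 0.909).

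The machinery that switches integrins on and ties them to actin was abundant, and none of its genes was called. Of 33 such genes 31 were tested, and edgeR called 0 (0 at an unadjusted p under 0.05), with a median log2 fold change of -0.0068. The 25 with at least 10 CPM lay between -0.09 and 0.04. Flna, filamin A, which cross-links actin and binds beta tails, was at 1758 ± 66.2 CPM under PBS and 1779 ± 93.2 CPM under IL17B, and Tln1, talin 1, at 1048 ± 18.6 and 1054 ± 21.5 CPM. Fermt3, the kindlin of blood cells, whose loss in humans causes leukocyte adhesion deficiency, was at 348 ± 0.60 and 342 ± 15.4 CPM. In CPM, 2 of the 31 were lower in every IL17B library and 0 higher, against 4.77% and 5.16% of all genes tested. Actn4, an alpha-actinin, was 1 of these 2, at 388 ± 12.5 and 368 ± 0.779 CPM (edgeR adjusted p = 0.973).

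No signalling gene downstream of integrins was called either. All 26 were tested and edgeR called 0 (0 at an unadjusted p under 0.05), with a median log2 fold change of 0.0034, and those with at least 10 CPM lay between -0.09 and 0.09. Fcer1g and Tyrobp, adaptors that carry the signal of beta2 integrins to the kinase Syk, were at 1157 ± 80.4 and 947 ± 33.4 CPM under PBS and at 1173 ± 28.5 and 973 ± 60.7 CPM under IL17B. Syk was at 662 ± 29.2 and 681 ± 15.4 CPM. Of the 14 membrane partners edgeR called 0 (0 at an unadjusted p under 0.05), with a median of 0.0040 and a range from -0.12 to 0.08. Lgals3, a lectin that binds integrin sugars, was the most abundant of them by TPM and by CPM, at 4098 ± 118 CPM under PBS and 3861 ± 251 CPM under IL17B. The tetraspanin Cd63, which associates with beta1 integrins, was at 678 ± 16.2 and 666 ± 13.5 CPM.

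**Figure D5:**
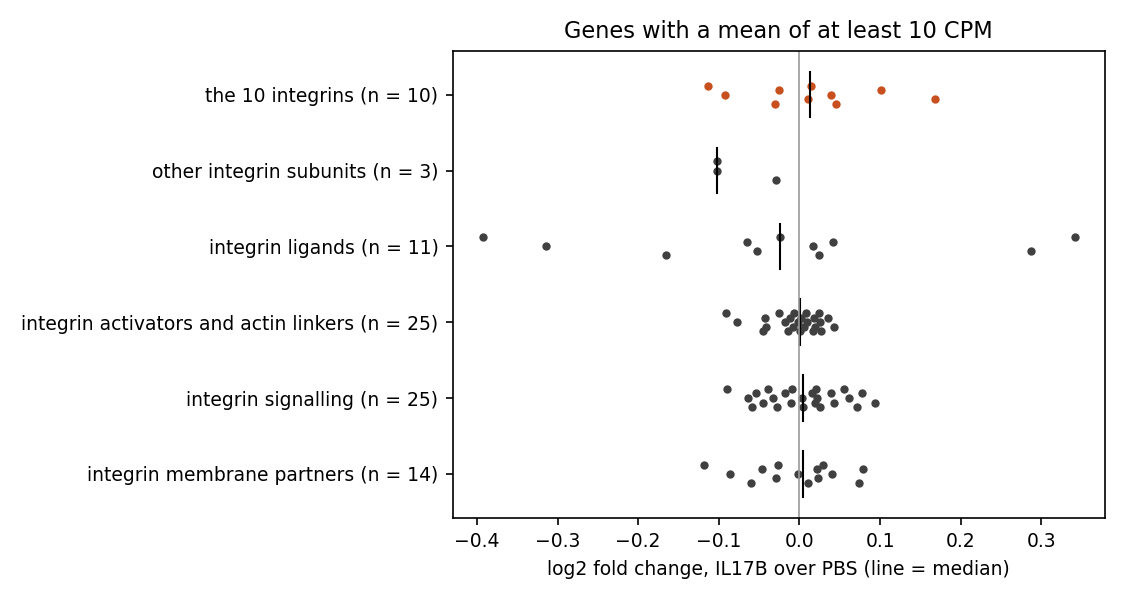
Log2 fold change, IL17B over PBS, of genes with a mean of at least 10 CPM, for the 10 integrins (orange) and 5 groups of related genes. Points are genes, spread vertically only to separate them, and short lines are medians. Activators, signalling genes and membrane partners lie within -0.12 to 0.09, and the ligands spread from -0.39 to 0.34.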

How the data were processed

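Poly(A)-selected RNA was read as short single-end reads without a stated strand setting. The authors filtered reads and mapped them to GRCm38 with HISAT2 2.0.4. For the estimated counts they aligned reads to a reference set of coding genes with Bowtie2 2.2.5 and ran RSEM 1.2.12. The deposited TPM and FPKM values come from the same estimates, with reads shared between genes divided among them. The authors' own DESeq2 1.4.5 calls were not used.

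Estimated counts were rounded. A total of 15 counts was required of a gene, which 13866 met, and these were tested with the quasi-likelihood method of edgeR 4.0.16 (R 4.3.3) after TMM scaling. Benjamini-Hochberg adjustment ran over all genes tested, with a threshold of 0.05. TPM ratios were compared by exact permutation tests. TPM and FPKM served for levels and lengths. Alternatives were other scalings and filters, DESeq2 1.42.0, limma 3.58.1 (voom with quality weights, or log2(TPM + 0.1 or 1)), a replicate block, each library left out, and, added after the data were seen, IL17B replicate 1 alone against PBS. Of these steps only the main edgeR fit was tested on simulated counts, drawn with the same dispersion for every gene.

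The members and gene lists were chosen with earlier results of these data known. All members are named. The 17 other integrin subunits are named too. Genes of the other lists were drawn from the 6 with the highest mean CPM, of at least 10 CPM, and not all of these are named. Gene coordinates, promoters and shared stretches come from RefSeq GRCm38.p6 and GENCODE M21. Genes named after their values were seen are marked.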

Additional observations from a re-analysis of the deposited data

How the results depend on the processing

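None of the 160 values of the 10 integrin genes over 16 alternatives was called, and the lowest adjusted p was 0.701 (limma, DESeq2 or edgeR). A change of sign occurred in 7 of them. Log2 fold changes with a library left out lay between -0.13 and 0.11 for Itgax, -0.021 and 0.074 for Itgb2 and -0.033 and 0.038 for Itgb5. They kept their sign for Itga4 (0.10 to 0.20), Itga5 (-0.12 to -0.04), Itga6 (-0.071 to -0.0034), Itgal (0.01 to 0.08), Itgam (0.06 to 0.13), Itgav (-0.18 to -0.04) and Itgb1 (-0.054 to -0.0060). With IL17B replicate 1 alone against PBS they were -0.018 for Itgax and -0.026 for Itgb5. Differences in TPM ratio, IL17B minus PBS, are given here only for the settings with a library left out. They lay between -0.0037 and 0.0016 for Itga6/Itgb1, -0.0093 and 0.012 for Itgal/Itgb2 and -0.0050 and 0.0023 for Itgax/Itgb2. The others were 0.025 to 0.046 for Itga4/Itgb1, -0.042 to -0.010 for Itga5/Itgb1 (nearest 0 without PBS replicate 1), 0.0096 to 0.032 for Itgam/Itgb2 (nearest 0 without IL17B replicate 1) and -0.042 to -0.0019 for Itgav/Itgb5 (nearest 0 without IL17B replicate 2). Over all genes edgeR called 0, DESeq2 6 and limma on log2(TPM + 0.1) 1, and leaving out a library gave 0 to 86 (86 without IL17B replicate 1). Among the ligands 0 to 4 were called with a library left out (4 without IL17B replicate 1), namely Fga, Fgb, Fgg and Vtn. The cause of these changes was not tested.

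No source used here says whether the replicate numbers pair the samples. Correlations between libraries showed no sign of pairing, but deviations from means of 3 libraries cannot exclude it. Deviations of same-numbered libraries correlated at -0.14, 0.01 and -0.13 over 8680 genes, and PBS replicate 1 correlated best with IL17B replicate 3 (0.23). With a replicate block edgeR called 76 genes, 4 of them ligands and 0 of the 10 integrins, and the log2 fold change of Itga4 was 0.17 (adjusted p = 1.0).

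With 3 libraries a treatment, precision is set by the spread between these libraries, and the 95% intervals given rest on that spread alone.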
